A study of Rattus norvegicus with 15 samples.

Results

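The genes described here encode enzymes and complex subunits that write or remove H3K4 methylation, methylate or oxidise DNA, remove histone acetyl groups, or add and remove the Polycomb mark H3K27me3. The set was written as a list of 36 gene symbols, and its members were found as the rows of the TPM table that carry those symbols. Of the 36, 35 were matched among 32623 entries and 34 were tested among 12207 genes. Tet1 lay under the filter for tests (at least 1 TPM in at least 3 libraries), and Smyd3 is not analysed here.

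The data are RNA-seq of polyA RNA in 15 libraries of smooth muscle cells (SMC) from rat aorta, kept in culture. The Myocd-LSD1 group (4 libraries) is a line that carries a fusion of myocardin with the H3K4 demethylase LSD1, used per the series' design text to take H3K4me2 off SMC genes. The Myocd-LSD1NF group (4 libraries) is a second line, and the labels do not spell out NF. The PDGF-BB group (3 libraries) is control SMC given platelet-derived growth factor BB, an SMC mitogen, for 24 h at 30 ng/ml, once 48 h of starvation had passed, and the control group (4 libraries) is untreated SMC. Cells of all groups were starved for 72 h in medium with neither serum nor insulin before harvest. The sources used here do not say how the lines were made or whether each is 1 clone, so what the fusion does and what else sets a line apart from control SMC cannot be told apart. They also do not say that replicates are separate cultures. The p-values therefore set differences only against the spread of these samples, and that spread may be technical.

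Methylation of lysine 4 on histone H3 marks promoters and enhancers. It is written by SET-domain enzymes of the KMT2 and SETD1 families, which share the core subunits Wdr5, Rbbp5, Ash2l and Dpy30, and it is removed by the amine oxidases LSD1 (Kdm1a) and LSD2 (Kdm1b) and by the KDM5 demethylases. LSD1 works in the CoREST complex beside the deacetylases Hdac1 and Hdac2. DNA methylation is set by Dnmt3a, copied after replication by Dnmt1 with Uhrf1 and oxidised by TET enzymes, of which TET2 is known as a regulator of the contractile state of SMC. The Polycomb complex PRC2, built on Ezh2, Suz12 and Eed, places H3K27me3, and Kdm6b removes it.

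TPM are normalized for transcript length, so the levels of different genes can be compared within a library, but they keep no depth, which is therefore unknown. Within groups, log2 values of libraries correlated at r = 0.961 to 0.988. The 8 SMC markers were each at 1 TPM or more in at least 1 library, and their summed level was 3444 to 6106 TPM in Myocd-LSD1, 9531 to 20500 TPM in Myocd-LSD1NF, 5339 to 7173 TPM with PDGF-BB and 17600 to 21940 TPM in control. Of the markers of other cell types, 4 of 5 matched endothelial, 3 of 5 leukocyte, 2 of 6 fibroblast and 2 of 6 epithelial and mesothelial genes stayed under 1 TPM in every library, with Emcn and Cd34 at 0 throughout. The 5 matched leukocyte markers summed to 107.8 to 227.8 TPM in Myocd-LSD1, 55.6 to 137.2 TPM in Myocd-LSD1NF, 74.9 to 132.8 TPM in PDGF-BB and 39.1 to 49.6 TPM in control, of which Cd14 was nearly all. The epithelial and mesothelial markers summed to 66.9, 194.2, 31.9 and 140.8 TPM in Myocd-LSD1, 14.01 to 22.2 TPM in Myocd-LSD1NF, 6.09 to 9.74 TPM in PDGF-BB and 19.4 to 34.1 TPM in control. They were highest in Myocd-LSD1 2 and 4, mostly as Msln, and these libraries also had the lowest Hdac2 and the highest Kdm6b and Rcor3 of that line. The fibroblast markers summed to 6.61 to 15.1 TPM in Myocd-LSD1, 5.23 to 8.99 TPM in Myocd-LSD1NF, 25.9 to 56.7 TPM in PDGF-BB and 15.4 to 35.7 TPM in control. Their part in the results below was not tested. Earlier work on these data found Myocd-LSD1 libraries 2 and 4 apart from libraries 1 and 3, so the members' called values in that line are also given without libraries 2 and 4. Array weights, which count libraries that stray from their group less, were 0.443 and 0.373 for Myocd-LSD1 1 and 3. They were 2.07 and 1.21 for Myocd-LSD1 2 and 4. Which of these pairs is the unusual one was not tested. In RNA from a whole culture, fewer cells that make a transcript and less of it in each cell cannot be told apart.

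The promoters of Ezh2, Dnmt1, Uhrf1 and Kdm1a are shown because these 4 members were higher with PDGF-BB and their windows hold an octamer of the kind that E2F factors, known regulators of genes for DNA replication, bind. Sequences are RefSeq windows of build GRCr8, from 250 bases before to 50 bases after the annotated start, and capitals mark the octamer. The Ezh2 window is chr4:77687134-77687433 (minus strand), that of Kdm1a is chr5:154121726-154122025 (minus strand), that of Dnmt1 is chr8:27762792-27763091 (minus strand), and that of Uhrf1, the CpG-densest of its windows, is chr9:1222936-1223235 (plus strand).
Ezh2: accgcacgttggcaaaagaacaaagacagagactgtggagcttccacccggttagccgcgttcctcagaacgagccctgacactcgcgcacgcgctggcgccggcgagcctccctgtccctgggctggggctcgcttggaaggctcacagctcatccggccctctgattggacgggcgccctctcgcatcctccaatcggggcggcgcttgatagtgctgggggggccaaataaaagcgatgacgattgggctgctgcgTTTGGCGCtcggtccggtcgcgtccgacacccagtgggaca
Dnmt1: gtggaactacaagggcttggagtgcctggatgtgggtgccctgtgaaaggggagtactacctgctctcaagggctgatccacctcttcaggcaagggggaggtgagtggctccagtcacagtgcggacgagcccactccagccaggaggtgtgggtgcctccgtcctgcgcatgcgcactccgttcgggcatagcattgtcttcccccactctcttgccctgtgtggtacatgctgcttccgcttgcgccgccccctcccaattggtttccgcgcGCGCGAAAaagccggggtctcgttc
Uhrf1: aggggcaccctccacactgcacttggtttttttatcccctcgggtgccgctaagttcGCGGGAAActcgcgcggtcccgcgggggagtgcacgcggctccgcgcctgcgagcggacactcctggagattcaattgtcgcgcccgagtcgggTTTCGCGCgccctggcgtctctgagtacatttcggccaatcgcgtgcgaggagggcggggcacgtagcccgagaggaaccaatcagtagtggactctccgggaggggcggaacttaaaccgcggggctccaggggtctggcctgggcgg
Kdm1a: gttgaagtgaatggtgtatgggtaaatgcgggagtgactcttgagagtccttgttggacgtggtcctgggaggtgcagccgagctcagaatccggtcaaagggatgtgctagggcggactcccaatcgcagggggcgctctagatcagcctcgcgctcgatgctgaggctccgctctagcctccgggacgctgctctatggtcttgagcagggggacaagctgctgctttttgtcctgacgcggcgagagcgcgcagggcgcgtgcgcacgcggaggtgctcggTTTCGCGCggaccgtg
The octamers searched, on both strands, were TTTCCCGC, TTTGGCGC and TTTCGCGC, which do not overlap one another in these windows, and they were chosen after the PDGF-BB results were known. Counted from the start site, TTTGGCGC lay at 10 to 17 in Ezh2 and TTTCGCGC at 35 to 42 in Kdm1a. In Dnmt1, TTTCGCGC lay on the opposite strand at 26 to 33, and in Uhrf1 TTTCCCGC lay on the opposite strand at -193 to -186 and TTTCGCGC on the gene's strand at -99 to -92. The same search found TTTCCCGC in Suz12 at -199 to -192 and in Rbbp5 at -103 to -96.

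A window was present for 29 of the 36 members, and 6 of these (20.7%) held an octamer, against 529 of all 27457 genes with a window (1.93%). Among the 6 members called higher with PDGF-BB, 4 held one (66.7%), and among the other 23 members with a window 2 did (8.7%). The members' windows were rich in CpG, with a median of 27 in the densest window of a gene and 28 of 29 above the median of 8 for all genes. Kmt2c had the most (56) and Wdr5 the fewest (3). Each octamer searched holds a CpG, and the share over all genes was not matched for CpG content. The part of CpG content in the members' share was not tested. These are counts of letters in the windows and describe no binding. No window was matched for Kmt2a, Kmt2d, Ash1l, Setd7, Smyd3, Ash2l and Rcor2.

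In control SMC the set spanned a wide range of levels. The deacetylases Hdac1 and Hdac2 stood highest, at 159.0 ± 9.65 and 127.9 ± 5.79 TPM (SD, n = 4), above 92.3% and 90.3% of tested genes. Below them came a group whose libraries overlapped, with Smyd2 at 57.4 ± 7.08, Kdm1a at 55.1 ± 3.48, Hdac3 at 54.3 ± 3.80, Dpy30 at 51.9 ± 11.1, Ash2l at 51.1 ± 2.32 and Kdm5b at 50.2 ± 4.29 TPM. Within the pairs of related enzymes the levels were unequal: Kdm1a was at 55.1 TPM and Kdm1b at 4.99 ± 0.539 TPM, and Dnmt1 was at 20.2 ± 2.60 TPM and Dnmt3a at 7.85 ± 1.52 TPM. Among the H3K4 methyltransferases, Setd1a (25.3 ± 3.09 TPM), Kmt2b (16.7 ± 2.59 TPM) and Kmt2d (14.8 ± 2.55 TPM) stood above Kmt2a, Setd1b and Kmt2c, whose means were 6.81, 6.69 and 6.54 TPM. Tet2 and Tet3 were at 7.01 ± 1.70 and 6.81 ± 1.68 TPM, and Tet1 stayed between 0.30 and 1.0 TPM in all 15 libraries. The spread between libraries was usually small, with a median coefficient of variation over the 35 members of 16.6% in Myocd-LSD1, 18.2% in Myocd-LSD1NF, 11.1% with PDGF-BB and 12.9% in control. It was widest for Uhrf1 in Myocd-LSD1 (52.9%), Kdm6b in Myocd-LSD1NF (55.1%), Rcor2 in PDGF-BB (56.7%) and Kdm6b in control (59.0%).

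**Figure D1:**
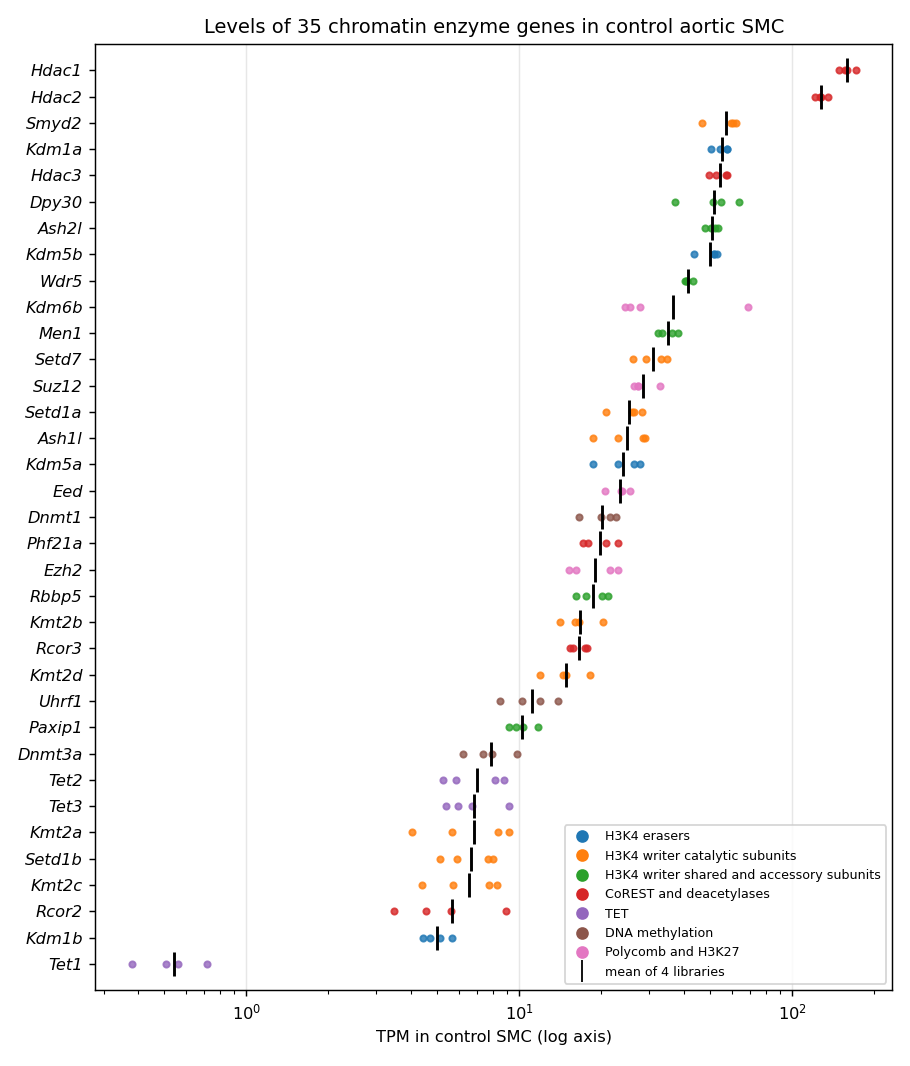
TPM of the 35 matched members in the 4 control libraries, on a log axis, coloured by function, with points for libraries and a bar for their mean. Hdac1 and Hdac2 stand above 120 TPM in every library, and Tet1 is under 1 TPM.

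In no single comparison were more than 6 of the 34 tested members called. A gene was called when its limma adjusted p over all 12207 genes was under 0.05. Myocd-LSD1 differed from control in 6 members, with Rcor2, Kdm1b, Paxip1 and Smyd2 higher and Dnmt3a and Hdac2 lower, which is 17.6% of those tested beside 32.2% of all genes. No member was called between Myocd-LSD1NF and control, where limma called 2.21% of all genes, and 2 members had an unadjusted p under 0.05. Between Myocd-LSD1 and Myocd-LSD1NF, 1 member was called (2.94%), Kdm1b, beside 31.8% of all genes. PDGF-BB differed from control in 6 members, all higher (Uhrf1, Dnmt1, Ezh2, Smyd2, Hdac3 and Kdm1a), 17.6% of those tested beside 27.7% of all genes called, 19.2% higher and 8.5% lower. Between Myocd-LSD1 and PDGF-BB, Kdm6b and Rcor3 were higher and Uhrf1, Dnmt1, Dpy30 and Ash2l lower in Myocd-LSD1, again 17.6% beside 31.1% of all genes, of which 10.6% were higher and 20.5% lower.

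The 2 lines and PDGF-BB were each set against the same 4 control libraries, so these comparisons are not independent of one another. The median log2 fold change of the members, beside that of all tested genes, was 0.13 and 0.03 for Myocd-LSD1 against control, -0.03 and -0.05 for Myocd-LSD1NF against control, and 0.20 and 0.12 for PDGF-BB against control. It was 0.15 and 0.07 for Myocd-LSD1 against Myocd-LSD1NF and -0.13 and -0.10 for Myocd-LSD1 against PDGF-BB. Log2 fold changes are differences of log2(TPM + 1), so those of low genes come out too small. For most members that were not called, the fit limits the size of a difference: the 95% interval stayed within 2-fold for 27 of 28 members in Myocd-LSD1 against control, 31 of 34 in Myocd-LSD1NF against control and 26 of 28 in PDGF-BB against control. The same was so for 31 of 33 between the lines and 25 of 28 between Myocd-LSD1 and PDGF-BB. The exceptions were Kdm6b, Rcor2, Uhrf1, Kmt2a and Ezh2, each in 1 or more comparisons.

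**Figure D2:**
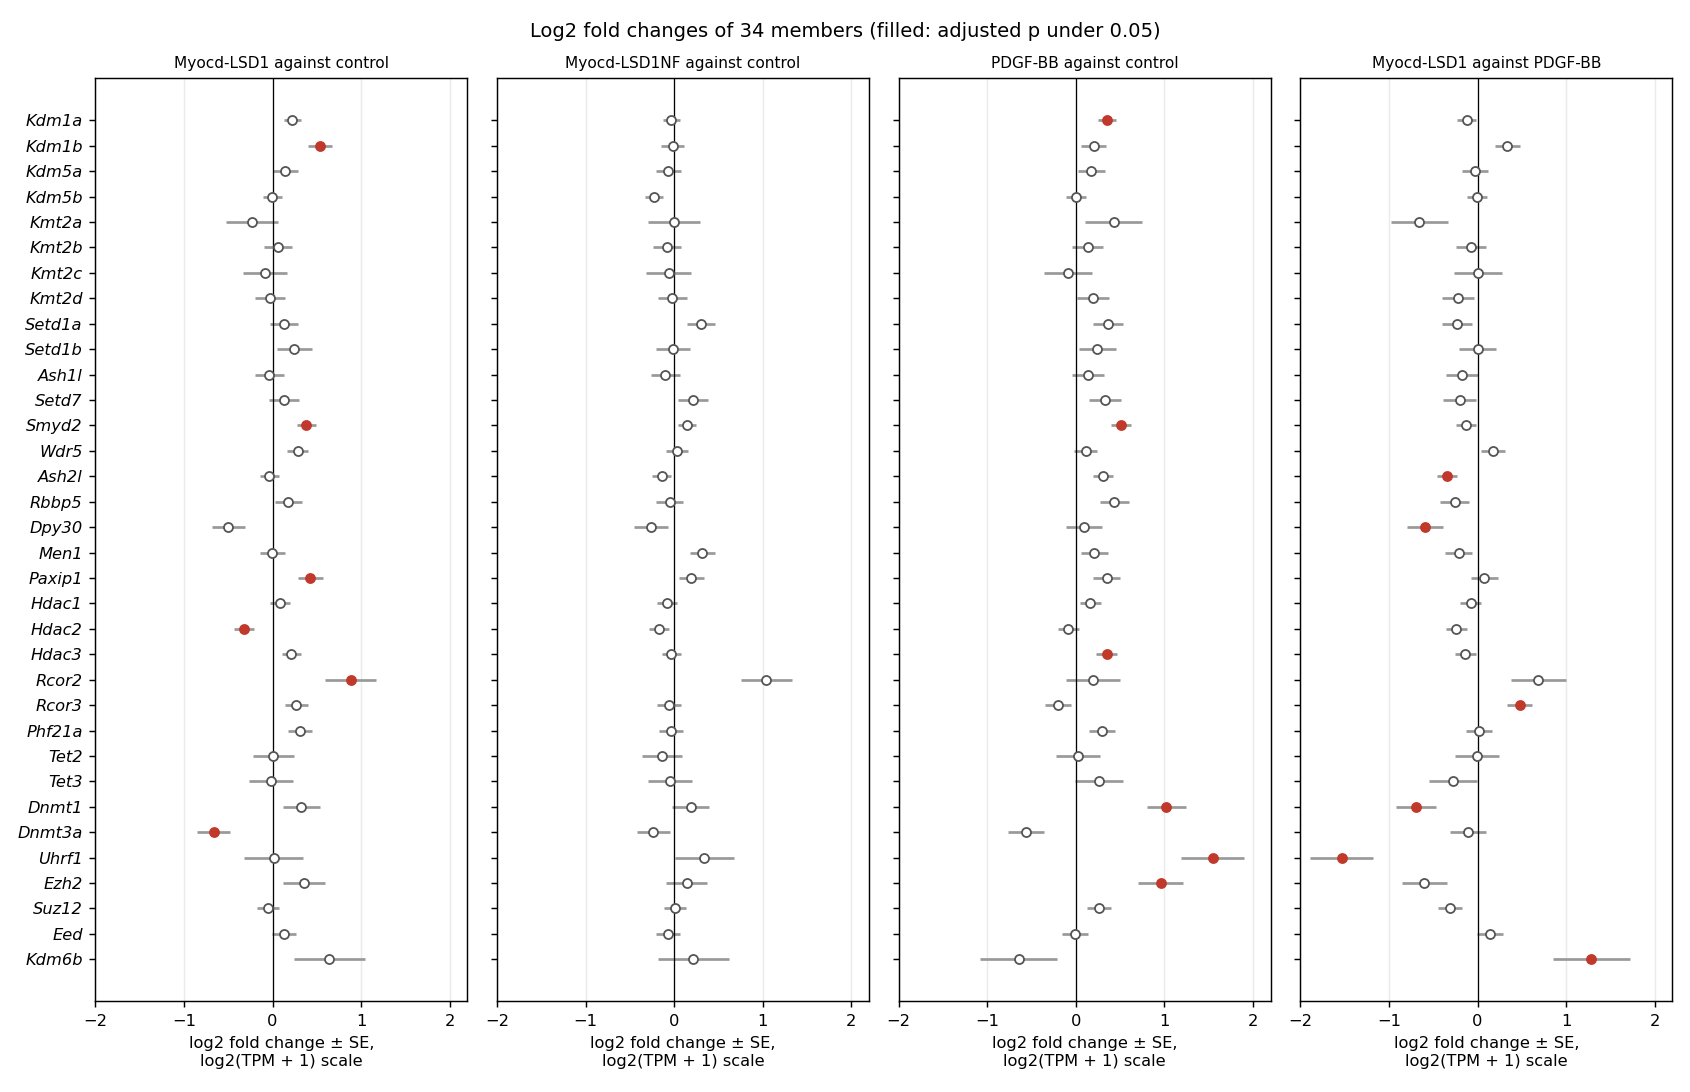
Log2 fold changes ± SE of the 34 tested members in 4 comparisons, with filled points for an adjusted p under 0.05. Most points lie within 0.5 of 0, and the largest are Uhrf1, Dnmt1, Ezh2, Rcor2 and Kdm6b.

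Among the enzymes that remove H3K4 methylation, Kdm1b was higher in the Myocd-LSD1 line. Kdm1b encodes LSD2, the relative of LSD1 known for acting on H3K4me1 and H3K4me2 within gene bodies. It was at 8.67, 7.10, 7.84 and 7.12 TPM in Myocd-LSD1, at 5.28, 4.57, 4.08 and 5.82 TPM in Myocd-LSD1NF, at 5.63, 5.12 and 6.95 TPM in PDGF-BB and at 4.71, 5.11, 4.44 and 5.68 TPM in control. All 4 Myocd-LSD1 libraries lay above every library of the other 3 groups. It differed by a log2 fold change of 0.54 ± 0.13 (SE) against control (limma adjusted p = 0.00571, 1.45-fold, 95% interval 1.19 to 1.76) and 0.55 ± 0.13 against Myocd-LSD1NF (adjusted p = 0.00524). Against PDGF-BB it was 0.34 ± 0.14 and missed the threshold (adjusted p = 0.0877), and median-of-ratios scaling made it a call (0.44, adjusted p = 0.0121). Without Myocd-LSD1 libraries 2 and 4 the log2 fold changes were 0.63 against control (adjusted p = 0.0145) and 0.65 against Myocd-LSD1NF (adjusted p = 0.0135). Both calls held under all 25 alternatives run.

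Kdm1a, which encodes LSD1 itself, was the 1 gene of this group called with PDGF-BB (25% of 4, beside 27.7% of all genes). It was at 67.1, 64.8, 67.7 and 58.7 TPM in Myocd-LSD1, at 50.6, 61.9, 54.7 and 49.1 TPM in Myocd-LSD1NF, at 75.6, 62.0 and 74.3 TPM in PDGF-BB and at 57.9, 54.6, 57.5 and 50.4 TPM in control. The PDGF-BB and the Myocd-LSD1 libraries lay above all 4 controls, while those of Myocd-LSD1NF and control overlapped. With PDGF-BB the log2 fold change was 0.35 ± 0.10 against control (adjusted p = 0.0208, 1.27-fold, 95% interval 1.09 to 1.48). That call was lost without PDGF-BB 1 (0.30, adjusted p = 0.0820), PDGF-BB 3 (0.31, adjusted p = 0.0840) or control 4 (0.31, adjusted p = 0.0546), and with median-of-ratios scaling (0.20, adjusted p = 0.141). In Myocd-LSD1 the log2 fold change missed the threshold against control (0.22 ± 0.10, adjusted p = 0.0874) and against Myocd-LSD1NF (0.26 ± 0.10, adjusted p = 0.0531). Between the lines it was called when Myocd-LSD1NF 2 (0.32, adjusted p = 0.0236), Myocd-LSD1 4 (0.30, adjusted p = 0.0396) or PDGF-BB 2 (0.26, adjusted p = 0.0443) was left out. Whether reads of a fusion transcript count toward Kdm1a in the lines is not stated by the labels.

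The KDM5 demethylases, which act on H3K4me2 and H3K4me3, did not differ by the test in any comparison. Kdm5a ranged over 24.9 to 29.4 TPM in Myocd-LSD1, 17.5 to 26.9 TPM in Myocd-LSD1NF, 25.6 to 29.4 TPM in PDGF-BB and 18.6 to 27.8 TPM in control. Kdm5b ranged over 43.0 to 54.6 TPM in Myocd-LSD1, 36.4 to 48.8 TPM in Myocd-LSD1NF, 47.2 to 53.4 TPM in PDGF-BB and 43.8 to 53.2 TPM in control. Libraries of all groups overlapped for both genes.

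Of 9 tested H3K4 methyltransferases of the set, 1 was called. That is 11.1% in Myocd-LSD1 and 11.1% with PDGF-BB, each against control, beside 32.2% and 27.7% of all genes. Smyd2, a SET- and MYND-domain enzyme known to methylate histone H3 and non-histone proteins such as p53, was higher both in Myocd-LSD1 and with PDGF-BB. Its libraries read 73.0, 69.4, 83.5 and 73.3 TPM in Myocd-LSD1, 57.2, 65.9, 59.7 and 70.6 TPM in Myocd-LSD1NF, 76.1, 82.9 and 86.7 TPM in PDGF-BB and 59.7, 46.9, 62.4 and 60.6 TPM in control. Both groups lay wholly above control, and Myocd-LSD1NF overlapped with control. The log2 fold change against control was 0.38 ± 0.10 in Myocd-LSD1 (adjusted p = 0.0105) and 0.51 ± 0.11 with PDGF-BB (adjusted p = 0.00407), and without Myocd-LSD1 libraries 2 and 4 the first was 0.45 (adjusted p = 0.0237). Both calls held under all 25 alternatives.

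The KMT2 and SETD1 enzymes, which carry out most H3K4 methylation, were not called in any of the 5 comparisons, nor were Ash1l and Setd7. Kmt2a was at 8.84, 4.76, 3.90 and 5.05 TPM in Myocd-LSD1, 11.7, 7.29, 3.87 and 5.21 TPM in Myocd-LSD1NF, 10.4, 10.0 and 7.29 TPM in PDGF-BB and 5.66, 9.18, 4.05 and 8.33 TPM in control, with overlap between all groups. Setd1a was at 30.7 to 34.1 TPM with PDGF-BB, above the 20.9 to 28.1 TPM of control, but its log2 fold change of 0.36 ± 0.17 missed the threshold (adjusted p = 0.126). The fit of PDGF-BB and control alone called it (adjusted p = 0.0442).

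Of the 6 shared and accessory subunits of the writer complexes, Paxip1 was called in Myocd-LSD1 and Ash2l and Dpy30 between Myocd-LSD1 and PDGF-BB. These are 16.7% against control and 33.3% against PDGF-BB, beside 32.2% and 31.1% of all genes. Paxip1, the PTIP subunit of the KMT2C and KMT2D complexes, was at 16.1, 12.3, 14.5 and 13.6 TPM in Myocd-LSD1, 11.0, 13.9, 8.80 and 14.2 TPM in Myocd-LSD1NF, 12.4, 13 and 14.4 TPM in PDGF-BB and 9.19, 11.7, 9.70 and 10.3 TPM in control. The Myocd-LSD1 and PDGF-BB libraries lay above control, those of Myocd-LSD1NF on both sides. In Myocd-LSD1 the log2 fold change was 0.43 ± 0.14 against control (adjusted p = 0.0318), and 0.54 without libraries 2 and 4 (adjusted p = 0.0398). The call was lost when any 1 of Myocd-LSD1 1, 3 and 4 or control 1, 3 and 4 was left out, with log2 fold changes of 0.36 to 0.44 and adjusted p-values of 0.0508 to 0.0894. With PDGF-BB the value was 0.35 ± 0.15 (adjusted p = 0.104).

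Dpy30, a core subunit that stimulates the KMT2 enzymes, had its lowest values in Myocd-LSD1. It was at 35.8, 28.5, 51.0 and 31.1 TPM in Myocd-LSD1, 40.7, 41.7, 53.7 and 35.2 TPM in Myocd-LSD1NF, 59.4, 49.3 and 54.6 TPM in PDGF-BB and 51.3, 55.0, 63.9 and 37.3 TPM in control. Myocd-LSD1 1, 2 and 4 were below every control and PDGF-BB library, and Myocd-LSD1 3 was among them. The log2 fold change was -0.59 ± 0.20 against PDGF-BB (adjusted p = 0.0373) and -0.50 ± 0.19 against control (adjusted p = 0.0530). The PDGF-BB call was lost when any 1 of the 3 PDGF-BB libraries or Myocd-LSD1 1, 2 or 4 was left out (-0.66 to -0.49, adjusted p = 0.0568 to 0.116), and stood at -0.34 without Myocd-LSD1 2 and 4 (adjusted p = 0.335). It was also lost with median-of-ratios scaling (-0.48, adjusted p = 0.0967), quantile normalization (adjusted p = 0.0653), no filter (adjusted p = 0.0538) and the 2 groups alone (adjusted p = 0.0507). The difference from control became a call without Myocd-LSD1 3 (-0.67, adjusted p = 0.00776), control 4 (-0.65, adjusted p = 0.0141), Myocd-LSD1NF 3 (-0.50, adjusted p = 0.0452) or Myocd-LSD1NF 4 (-0.50, adjusted p = 0.0486), with median-of-ratios scaling (-0.53, adjusted p = 0.0467) and with quantile normalization (-0.53, adjusted p = 0.0415).

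Ash2l, another core subunit, was at 59.9, 43.6, 51.4 and 45.4 TPM in Myocd-LSD1, 48.8, 51.1, 39.9 and 45.9 TPM in Myocd-LSD1NF, 61.4, 58.9 and 70.1 TPM in PDGF-BB and 52.4, 53.3, 50.6 and 48.0 TPM in control. The PDGF-BB libraries were the highest apart from Myocd-LSD1 1, which lay among them. Its log2 fold change in Myocd-LSD1 against PDGF-BB was -0.34 ± 0.12 (adjusted p = 0.0369). This was lost without PDGF-BB 1 or 3 or Myocd-LSD1 2 or 4 (-0.37 to -0.27, adjusted p = 0.0673 to 0.152), and was -0.19 without Myocd-LSD1 2 and 4 together (adjusted p = 0.343). Wdr5, Rbbp5 and Men1, the scaffold, core and menin subunits, were not called. Men1 averaged 35.1 ± 5.33 TPM in Myocd-LSD1 and 44.5 ± 9.32 TPM in Myocd-LSD1NF (log2 fold change -0.32 ± 0.14, adjusted p = 0.0967), and was called without Myocd-LSD1 1 (-0.42, adjusted p = 0.0390) or Myocd-LSD1NF 4 (-0.46, adjusted p = 0.00915). Rbbp5 averaged 25.7 ± 4.12 TPM with PDGF-BB and 18.7 ± 2.31 TPM in control (log2 fold change 0.43 ± 0.17, adjusted p = 0.0648), and was called without Myocd-LSD1 1, which only changes the estimate of the spread (adjusted p = 0.0430). Wdr5 averaged 51.1 ± 8.49 TPM in Myocd-LSD1 and 41.4 ± 1.24 TPM in control (log2 fold change 0.28 ± 0.12, adjusted p = 0.0925), and was called without Myocd-LSD1 2 and 4 (0.48, adjusted p = 0.0142) or without Myocd-LSD1 4 alone (0.36, adjusted p = 0.0422).

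**Figure D3:**
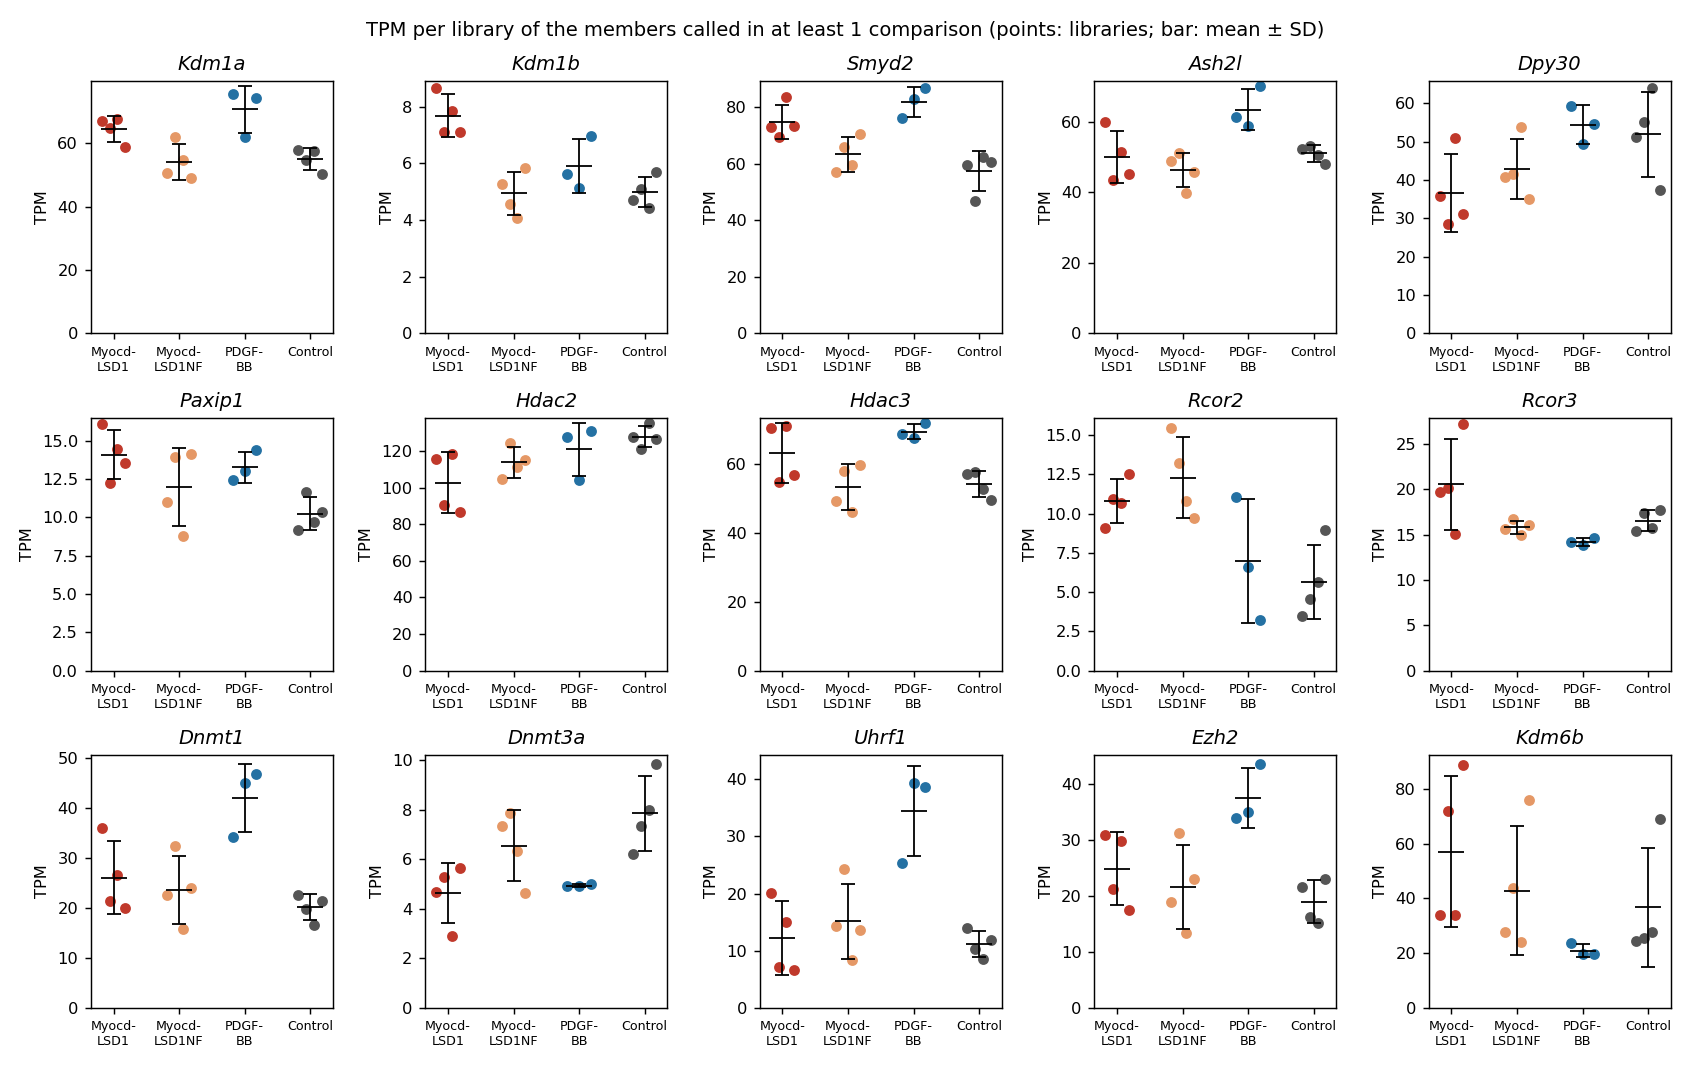
TPM in every library of the 15 members called in at least 1 comparison, with points for libraries and bars for mean ± SD (n = 4, and n = 3 for PDGF-BB), groups from left to right Myocd-LSD1, Myocd-LSD1NF, PDGF-BB and control. Kdm1b is highest in Myocd-LSD1, and Dnmt1, Uhrf1 and Ezh2 are highest in PDGF-BB.

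Of the 6 CoREST and deacetylase genes, Rcor2 was higher and Hdac2 lower in Myocd-LSD1 than in control (33.3%, beside 32.2% of all genes). Rcor2 encodes a CoREST paralog that, like CoREST itself, bridges LSD1 to nucleosomes. It was at 9.09, 10.9, 10.6 and 12.5 TPM in Myocd-LSD1, 15.5, 13.2, 10.8 and 9.70 TPM in Myocd-LSD1NF, 11.1, 6.59 and 3.21 TPM in PDGF-BB and 3.49, 4.57, 5.63 and 8.93 TPM in control. Both lines lay above every control, and the PDGF-BB libraries overlapped with each of the other groups. The log2 fold change against control was 0.88 ± 0.29 in Myocd-LSD1 (limma adjusted p = 0.0279) and 1.04 ± 0.29 in Myocd-LSD1NF (limma adjusted p = 0.0793). The unadjusted p-values were 0.00766 and 0.00245, and the adjustment runs over the genes of each comparison, of which far fewer were called for Myocd-LSD1NF.

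The Rcor2 call in Myocd-LSD1 was lost without control 1 (0.71, adjusted p = 0.0936), control 2 (0.82, adjusted p = 0.0711), control 3 (0.90, adjusted p = 0.0507), Myocd-LSD1 2 (0.87, adjusted p = 0.0579) or Myocd-LSD1 4 (0.81, adjusted p = 0.0698), and without both of the last (0.77, adjusted p = 0.153). Myocd-LSD1NF became a call without control 4 (1.25, adjusted p = 0.0318), PDGF-BB 1 (1.04, adjusted p = 0.0440) or PDGF-BB 3 (1.04, adjusted p = 0.0357). Between the lines the values overlapped and Rcor2 was not called.

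Hdac2, one of the pair of class I deacetylases of CoREST, was at 115.9, 90.4, 118.3 and 86.9 TPM in Myocd-LSD1, 104.6, 124.4, 111.4 and 115.0 TPM in Myocd-LSD1NF, 127.5, 104.2 and 131.2 TPM in PDGF-BB and 128.0, 121.4, 135.5 and 126.9 TPM in control. All Myocd-LSD1 libraries were below control, and its libraries 2 and 4 were the lowest of all 15. Its log2 fold change was -0.32 ± 0.11 (adjusted p = 0.0367). It was -0.13 without Myocd-LSD1 2 and 4 (adjusted p = 0.430), and the call was also lost without either of them alone or without any 1 of the 4 controls (-0.35 to -0.25, adjusted p = 0.0504 to 0.117). Hdac1, its partner, was at 141.4 to 195.3 TPM in Myocd-LSD1, 140.0 to 167.7 TPM in Myocd-LSD1NF, 166.0 to 198.3 TPM in PDGF-BB and 148.6 to 171.7 TPM in control, and was not called with all libraries. Without Myocd-LSD1 2 and 4, Hdac1 was called between the lines (log2 fold change 0.36, adjusted p = 0.0267).

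Hdac3, the deacetylase of the NCoR and SMRT corepressors, was at 70.6, 54.9, 71.2 and 56.7 TPM in Myocd-LSD1, 49.4, 57.9, 46.1 and 59.9 TPM in Myocd-LSD1NF, 68.6, 67.7 and 71.8 TPM in PDGF-BB and 57.2, 57.6, 52.7 and 49.7 TPM in control. PDGF-BB lay wholly above control, and Myocd-LSD1 1 and 3 reached its level while 2 and 4 stayed among the controls. With PDGF-BB the log2 fold change was 0.35 ± 0.12 (adjusted p = 0.0380), a call lost without any 1 of the 3 PDGF-BB libraries, control 3 or control 4 (0.31 to 0.37, adjusted p = 0.0760 to 0.115) and with median-of-ratios scaling (0.21, adjusted p = 0.0816). In Myocd-LSD1 it was not called over 4 libraries, but without 2 and 4 the log2 fold change was 0.38 (adjusted p = 0.0280).

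Rcor3, another CoREST paralog, was at 19.7, 20.1, 15.1 and 27.2 TPM in Myocd-LSD1, 15.6, 16.7, 14.98 and 16.0 TPM in Myocd-LSD1NF, 14.1, 13.8 and 14.7 TPM in PDGF-BB and 15.4, 17.4, 15.7 and 17.7 TPM in control. Myocd-LSD1 4 was the highest library and all 4 of that line exceeded PDGF-BB. The log2 fold change against PDGF-BB was 0.47 ± 0.14 (adjusted p = 0.0217). It was lost without Myocd-LSD1 4 (0.34, adjusted p = 0.0570), PDGF-BB 1 (0.47, adjusted p = 0.0576) or PDGF-BB 2 (0.46, adjusted p = 0.0690), and without Myocd-LSD1 2 and 4 (0.26, adjusted p = 0.194). Phf21a, the CoREST subunit that binds unmethylated H3K4, averaged 24.8 ± 3.91 TPM in Myocd-LSD1 and 19.7 ± 2.68 TPM in control (log2 fold change 0.31 ± 0.13, adjusted p = 0.0972), and was called without Myocd-LSD1 3 (0.42, adjusted p = 0.0195).

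Of the members, the DNA methylation genes Uhrf1 and Dnmt1 changed most with PDGF-BB. Dnmt1, the methyltransferase that copies CpG methylation onto new strands, was at 36.1, 21.5, 26.6 and 19.96 TPM in Myocd-LSD1, 22.6, 32.4, 15.7 and 24.0 TPM in Myocd-LSD1NF, 34.2, 45.1 and 47.0 TPM in PDGF-BB and 22.6, 19.9, 16.6 and 21.5 TPM in control. PDGF-BB lay above all controls, and Myocd-LSD1 1 alone reached into its range. With PDGF-BB against control its log2 fold change was 1.02 ± 0.22 (adjusted p = 0.00417, 2.03-fold, 95% interval 1.46 to 2.83), called under all 25 alternatives at 0.88 to 1.16. In Myocd-LSD1 against PDGF-BB it was -0.70 ± 0.22 (adjusted p = 0.0285). That was lost without PDGF-BB 2 or 3 or Myocd-LSD1 2 or 4 (-0.64 to -0.58, adjusted p = 0.0788 to 0.106), and was -0.41 without Myocd-LSD1 2 and 4 together (adjusted p = 0.284).

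Uhrf1, the E3 ligase that recognises hemimethylated DNA and brings Dnmt1 to it, had the largest log2 fold change with PDGF-BB in the set. It was at 20.03, 7.2, 15.1 and 6.63 TPM in Myocd-LSD1, 14.3, 24.3, 8.4 and 13.5 TPM in Myocd-LSD1NF, 25.4, 39.4 and 38.7 TPM in PDGF-BB and 13.9, 10.2, 8.52 and 11.9 TPM in control. All PDGF-BB libraries were above every other library, and in Myocd-LSD1 libraries 2 and 4 lay below and libraries 1 and 3 above all controls. Its log2 fold change was 1.54 ± 0.36 with PDGF-BB against control (adjusted p = 0.00569, 2.92-fold, 95% interval 1.72 to 4.94), called under all 25 alternatives at 1.28 to 1.74. In Myocd-LSD1 against PDGF-BB it was -1.53 ± 0.36 (adjusted p = 0.00448), and -0.92 without Myocd-LSD1 2 and 4 (adjusted p = 0.0753).

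Dnmt3a, the de novo methyltransferase, was lower in Myocd-LSD1 than in control. It was at 4.68, 5.29, 2.90 and 5.65 TPM in Myocd-LSD1, 7.33, 7.88, 6.34 and 4.65 TPM in Myocd-LSD1NF, 4.90, 4.90 and 5.01 TPM in PDGF-BB and 6.23, 7.34, 7.98 and 9.85 TPM in control. Myocd-LSD1 and PDGF-BB were both wholly below control, and Myocd-LSD1NF overlapped with control. Against control the log2 fold change was -0.67 ± 0.19 in Myocd-LSD1 (adjusted p = 0.0130), called under all 25 alternatives and at -0.90 without libraries 2 and 4 (adjusted p = 0.00924). With PDGF-BB it was -0.56 ± 0.20, on the edge of the threshold (adjusted p = 0.0510). Leaving out control 1 (-0.65, adjusted p = 0.0395), Myocd-LSD1 3 (-0.56, adjusted p = 0.0244), Myocd-LSD1 4 (-0.56, adjusted p = 0.0495) or Myocd-LSD1NF 4 (-0.56, adjusted p = 0.0344) made it a call, as did median-of-ratios scaling (-0.68, adjusted p = 0.0281), quantile normalization (-0.74, adjusted p = 0.0172) and the fit of PDGF-BB and control alone (adjusted p = 0.0242).

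The TET enzymes, which oxidise 5-methylcytosine, were not called. Tet2 was at 6.86, 7.76, 4.03 and 10.4 TPM in Myocd-LSD1, 7.43, 6.28, 4.72 and 6.5 TPM in Myocd-LSD1NF, 8.43, 7.25 and 5.56 TPM in PDGF-BB and 5.87, 8.12, 5.28 and 8.77 TPM in control. All groups overlapped, and the log2 fold changes of Tet2 and Tet3 against control lay within -0.02 and 0.01 in Myocd-LSD1 and within 0.02 and 0.26 with PDGF-BB. Without Myocd-LSD1 libraries 2 and 4 that line's values against control were -0.325 ± 0.245 for Tet2 (adjusted p = 0.366) and -0.225 ± 0.311 for Tet3 (adjusted p = 0.641).

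In the Polycomb group, Ezh2 was higher with PDGF-BB. This catalytic subunit of PRC2 was at 30.9, 21.2, 29.8 and 17.5 TPM in Myocd-LSD1, 19.0, 31.2, 13.4 and 23.0 TPM in Myocd-LSD1NF, 33.9, 34.9 and 43.5 TPM in PDGF-BB and 21.5, 16.1, 15.2 and 23.0 TPM in control. PDGF-BB stood above all libraries of the other groups. Against control its log2 fold change was 0.96 ± 0.25 (adjusted p = 0.0115, 1.94-fold, 95% interval 1.34 to 2.82), and 0.85 without PDGF-BB 3, where the call was lost (adjusted p = 0.0587). The other core subunits, Suz12 and Eed, were not called: Suz12 averaged 34.3 ± 4.77 TPM with PDGF-BB and 28.4 ± 3.02 TPM in control, and Eed 23.4 ± 4.48 TPM with PDGF-BB and 23.4 ± 2.01 TPM in control.

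Kdm6b, the JMJD3 demethylase that removes H3K27me3, had the widest relative spread of the members within Myocd-LSD1NF and within control. It was at 34.01, 71.9, 33.9 and 88.6 TPM in Myocd-LSD1, 27.6, 43.9, 24.1 and 75.8 TPM in Myocd-LSD1NF, 23.5, 19.6 and 19.5 TPM in PDGF-BB and 24.4, 25.5, 27.8 and 69.1 TPM in control. High values stood in Myocd-LSD1 2 and 4, Myocd-LSD1NF 4 and control 4, whereas the PDGF-BB libraries were low and close together. The log2 fold change of Myocd-LSD1 against PDGF-BB was 1.29 ± 0.43 (adjusted p = 0.0351) and 0.68 without Myocd-LSD1 2 and 4 (adjusted p = 0.349). The call was also lost without either of those alone or without any 1 PDGF-BB library (1.03 to 1.37, adjusted p = 0.0624 to 0.102). Against control the log2 fold change was 0.64 ± 0.40 in Myocd-LSD1 (adjusted p = 0.253), and its 95% interval did not exclude a 2-fold difference. It became a call with the replicate number as a block (0.64, adjusted p = 0.0245) and with array weights (1.17, adjusted p = 0.00605). Without Myocd-LSD1 2 and 4 it was 0.03 (adjusted p = 0.966).

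The members that changed most with PDGF-BB moved beside a list of 25 proliferation genes that holds none of them. Of these, 24 were higher with PDGF-BB than in control, with a median log2 fold change of 1.35, and in Myocd-LSD1 against PDGF-BB 20 were lower, with a median of -1.33. Their summed level was 947.6, 455.9, 841.4 and 449.5 TPM in Myocd-LSD1, 652.2, 1057, 479.2 and 771.1 TPM in Myocd-LSD1NF, 1286, 1490 and 1552 TPM in PDGF-BB and 655.0, 539.0, 481.8 and 699.2 TPM in control. The same libraries were high or low in this sum and in Dnmt1, Uhrf1 and Ezh2, including Myocd-LSD1 1 and 3 over 2 and 4 and Myocd-LSD1NF 2 over the rest of its group. The part of proliferation in the values of these members was not tested.

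**Figure D4:**
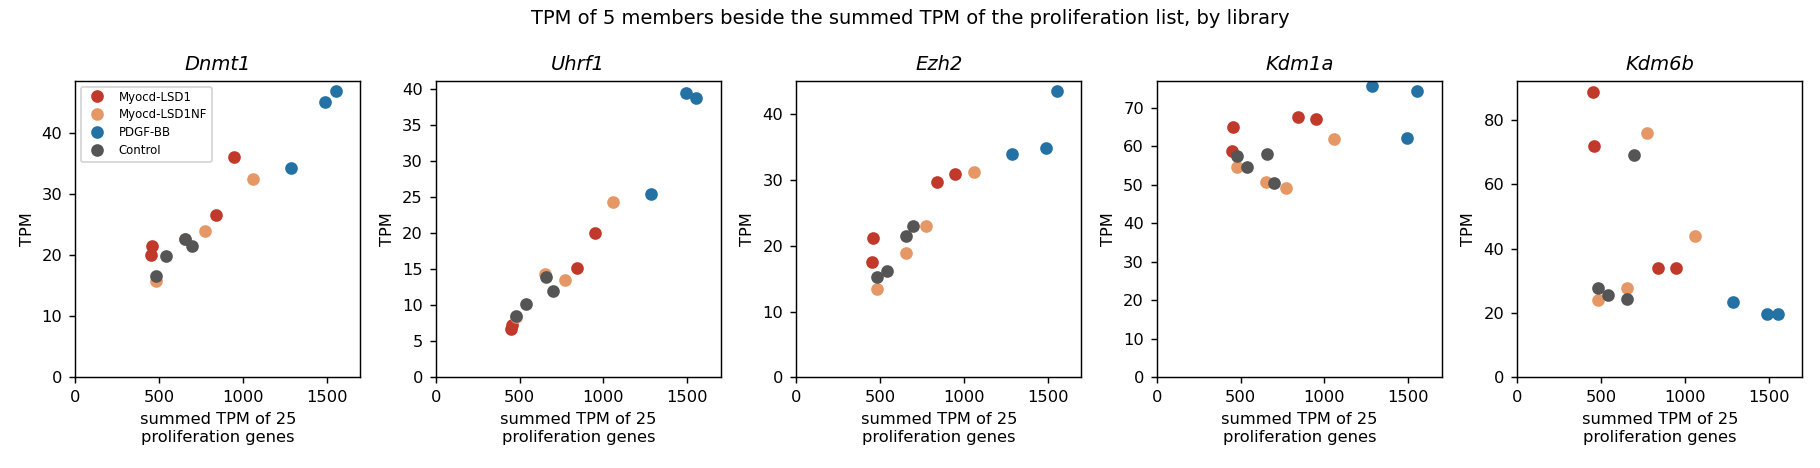
TPM of 5 members (vertical) beside the summed TPM of 25 proliferation genes (horizontal), 1 point a library, coloured by group. Dnmt1, Uhrf1 and Ezh2 stand highest in the PDGF-BB libraries, whose sums are 1286 to 1552 TPM, and Kdm6b is lowest there.

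The wider pathways were read from lists of related genes that are not members. Of 17 tested further H3K4 genes, 1 was higher and 2 lower in Myocd-LSD1 than in control (17.6% called, beside 32.2% of all genes). Kdm6a, the UTX demethylase of the KMT2C and KMT2D complexes, was higher (20.8, 16.3, 24.3 and 17.0 TPM in Myocd-LSD1, against 11.99, 12.4, 9.61 and 16.0 TPM in control, log2 fold change 0.61 ± 0.17, adjusted p = 0.0104), with all 4 values above control, and at 0.82 without libraries 2 and 4 (adjusted p = 0.00786). Setd3, an actin histidine methyltransferase first described as acting on histone H3, had a log2 fold change of -0.44 ± 0.08 (limma adjusted p = 0.000852), and -0.32 without libraries 2 and 4 (adjusted p = 0.0189). Kdm5d also fell, at 21.0, 6.10, 19.3 and 9.41 TPM in Myocd-LSD1 against 24.3, 25.6, 20.6 and 22.9 TPM in control, with libraries 2 and 4 lowest, and without these 2 libraries the log2 fold change was -0.20 (adjusted p = 0.288). The Kdm5d call was also lost without either of them alone, control 1 or control 2. Its X-linked copy Kdm5c is much alike, and how the counting placed reads between them is not known, so the level is uncertain. The cause of the low values in libraries 2 and 4 was not tested. Between the lines 2 were higher and 2 lower, with PDGF-BB 1 was higher (Psip1, a chromatin-bound coactivator that tethers the menin complex, log2 fold change 0.52 ± 0.13, lost without PDGF-BB 3 at an adjusted p of 0.0505), and in Myocd-LSD1 against PDGF-BB 1 was higher and 3 lower.

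Among 19 tested genes of CoREST and of NuRD, the related remodelling and deacetylase complex, Gse1 was higher and Chd3 lower in Myocd-LSD1 than in control. Gse1, a protein found with CoREST, was at 5.39, 5.46, 2.74 and 4.87 TPM in Myocd-LSD1 and 0.51, 1.03, 0.25 and 1.49 TPM in control (log2 fold change 1.64 ± 0.35, adjusted p = 0.00200), with no overlap, and 1.48 without libraries 2 and 4 (adjusted p = 0.0290). With PDGF-BB 4 genes rose and none fell (21.1% higher, beside 19.2% of all genes), namely Chd3, Chd4, Rbbp7 and Rbbp4, the remodelling and histone-binding subunits of NuRD, by log2 fold changes of 0.33 to 0.53. Each of these 4 calls was lost without control 3, control 4, PDGF-BB 2 or PDGF-BB 3, with the highest adjusted p-values over all alternatives between 0.0938 (Chd3) and 0.211 (Rbbp7). Chd3 was below control in Myocd-LSD1 (-0.63 ± 0.16, and -0.52 with adjusted p = 0.0732 without libraries 2 and 4) and above it with PDGF-BB (0.53 ± 0.17), and the difference between the 2 groups was -1.16 ± 0.17 (adjusted p = 0.000148). In that comparison 1 gene of the list was higher and 4 were lower.

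Of 13 tested DNA methylation genes outside the set, 3 were higher and 1 lower in Myocd-LSD1 than in control (30.8% called, beside 32.2% of all genes). Idh1, the isocitrate dehydrogenase that makes the TET cofactor 2-oxoglutarate, was at 112.9, 64.8, 115.7 and 70.0 TPM in Myocd-LSD1, 171.8, 161.6, 169.1 and 172.8 TPM in Myocd-LSD1NF, 169.8, 157.8 and 180.3 TPM in PDGF-BB and 249.6, 258.8, 209.7 and 175.7 TPM in control. Every Myocd-LSD1 library was below all others, at a log2 fold change of -1.32 ± 0.17 against control (limma adjusted p = 3.91e-05), and -0.95 without libraries 2 and 4 (adjusted p = 0.000259). Idh2, its mitochondrial relative, rose by 0.48 ± 0.10 (adjusted p = 0.00201). Gadd45a, a stress protein linked to DNA demethylation, rose by 1.20 ± 0.21 (adjusted p = 0.000406). Without libraries 2 and 4 Idh2 had an adjusted p of 0.0347, and Gadd45a stood at 0.92 (adjusted p = 0.00983). With PDGF-BB 3 rose and 2 fell (38.5% called, beside 27.7% of all genes), the falls being Gadd45b (-3.11 ± 0.45, adjusted p = 0.000255) and Gadd45g (-2.61 ± 0.37, adjusted p = 0.000223), relatives of Gadd45a. Between the lines 2 were higher and 1 lower, and 3 and 3 in Myocd-LSD1 against PDGF-BB.

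Of 27 tested Polycomb genes outside the set, 4 were higher and 2 lower in Myocd-LSD1 than in control (22.2% called, beside 32.2% of all genes). The subunits of the PRC1 complex moved in both directions: Pcgf5 (9.64, 6.55, 15.1 and 7.0 TPM in Myocd-LSD1, against 31.2, 31.4, 36.1 and 38.2 TPM in control, log2 fold change -1.80 ± 0.37, adjusted p = 0.00168) and the E3 ligase Rnf2 (-0.53 ± 0.10) fell, and Rybp (0.49 ± 0.13) rose. Without libraries 2 and 4 the values were -1.42 for Pcgf5 (adjusted p = 0.0358), -0.39 for Rnf2 (adjusted p = 0.0180) and 0.33 for Rybp, where the call was lost (adjusted p = 0.114). All Pcgf5 values in Myocd-LSD1 were below control. With PDGF-BB 5 rose and 2 fell (25.9% called, beside 27.7% of all genes). Pcgf5 was 1 of those that fell, by -1.47 to -1.09 over the 25 alternatives, a call lost under 4 of them. The lists overlap, so these calls are not all separate. Rbbp7 and Rbbp4 are counted both here and among the NuRD rises with PDGF-BB. Kdm6a is counted both here and among the further H3K4 genes higher in Myocd-LSD1. Phf19, an accessory subunit of PRC2, was at 6.32, 7.91 and 7.52 TPM in PDGF-BB and 1.75, 1.58, 1.10 and 2.40 TPM in control (log2 fold change 1.62 ± 0.29, adjusted p = 0.00113), the largest rise of this list. Between the lines 6 were higher and 4 lower, and in Myocd-LSD1 against PDGF-BB 2 were higher and 4 lower. In Myocd-LSD1NF against control, none of the further H3K4, CoREST and NuRD, DNA methylation and Polycomb genes was called.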

How the data were processed

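RNA of 15 libraries of rat aortic SMC was sequenced after TruSeq stranded polyA preparation, per the labels. The authors deposited TPM, 1 column a library. The aligner, counting tool and genome build used for them were not found in these labels or files, and 4 columns of group means were not used. Each library was assigned to its group by its title.

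Genes with at least 1 TPM in at least 3 libraries were kept (12207 of 32623 entries), a pseudocount of 1 was added, and log2 values of all 15 libraries were fitted with 1 mean per group in limma 3.58.1 (R 4.3.3, eBayes with trend). In each of 5 comparisons a gene was called at an adjusted p under 0.05 (Benjamini-Hochberg over all genes kept, two-sided). Plots were made with Python 3.11.15 and matplotlib 3.10.9. The procedure was tested on simulated data.

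The members, the further lists and the markers were chosen with earlier results of these data known. All members were described, those called library by library, and from the further lists counts and up to 4 called genes with the largest change were named per comparison; some results of the CoREST and NuRD list are not reported here. The alternatives were to leave out each library in turn, or Myocd-LSD1 libraries 2 and 4 together, to fit only the compared groups, to add array weights or a replicate block, to scale by quantiles or by median of ratios, to drop the filter or set it at a mean of 5 TPM, and to use pseudocounts of 0.1 and 5. Promoter windows are those of RefSeq on GRCr8, matched by gene symbol.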

Additional observations from a re-analysis of the deposited data

Results flagged for a closer look

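In 105 sets of 4 libraries (35 members in each of 3 groups), 8 held a library far from the other 3, and chance alone gives about 1 in 20. Kdm6b was at 69.13 TPM in control 4, with the other controls at 24.4 to 27.8 TPM. Library 4 also held the highest Kdm6b value of Myocd-LSD1 and of Myocd-LSD1NF. Suz12 was at 22.48 TPM in Myocd-LSD1NF 3 (others 30.4 to 30.9 TPM) and at 32.9 TPM in control 4 (others 26.2 to 27.3 TPM). Phf21a was at 15.99 TPM in Myocd-LSD1NF 3 (others 20.3 to 20.4 TPM), and Eed at 26.37 TPM in Myocd-LSD1NF 4 (others 20.5 to 21.1 TPM). Men1 was at 43.08 TPM (others 31.7 to 32.9 TPM) and Kdm5a at 29.39 TPM (others 24.9 to 25.6 TPM) in Myocd-LSD1 1. Kdm5b was at 43.81 TPM in control 3 (others 51.7 to 53.2 TPM).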

How the results depend on the processing

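No log2 fold change of a called member changed sign under the 25 alternatives. Kdm1b, Smyd2 and Dnmt3a in Myocd-LSD1 against control, Kdm1b between the lines, and Smyd2, Dnmt1 and Uhrf1 with PDGF-BB stayed called throughout. Members called numbered 10 with array weights instead of 6 for Myocd-LSD1 against control, 3 instead of 0 for Myocd-LSD1NF against control, 6 instead of 1 between the lines, 10 instead of 6 for PDGF-BB against control and 11 instead of 6 for Myocd-LSD1 against PDGF-BB. Fits of the compared groups alone called 10 members for PDGF-BB against control and 3 for Myocd-LSD1 against PDGF-BB, and 176 instead of 270 genes for Myocd-LSD1NF against control, where the filter at a mean of 5 TPM called 110 and array weights 919. The compared groups alone also lost Hdac2 in Myocd-LSD1 against control (adjusted p = 0.0656) and Rcor3 (adjusted p = 0.0890) and Ash2l (adjusted p = 0.0937) against PDGF-BB, and without the filter Kdm6b was lost there (adjusted p = 0.0567). Between the lines, median-of-ratios scaling called 2 members and quantile normalization 3. Without Myocd-LSD1 libraries 2 and 4, 5 members were called between the lines. These were Kdm1b, Hdac3 (0.41, adjusted p = 0.0198), Wdr5 (0.45, adjusted p = 0.0215), Hdac1 (0.36, adjusted p = 0.0267) and Dnmt3a (-0.66, adjusted p = 0.0423). With all libraries, 10 of the 28 members not called against PDGF-BB had an unadjusted p under 0.05. Without Myocd-LSD1 libraries 2 and 4, 0 instead of 6 members were called against PDGF-BB, where 2242 instead of 3792 genes were called. The cause of these differences was not tested.

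Leaving out 1 library at a time gave 3 to 8 members for Myocd-LSD1 against control (3253 to 4100 genes, 3936 with all), 0 to 1 for Myocd-LSD1NF against control (109 to 312 genes), 1 to 3 between the lines (3145 to 4039 genes, 3877 with all), 3 to 8 for PDGF-BB against control (2137 to 3589 genes, 3384 with all, the lowest without PDGF-BB 3) and 1 to 7 for Myocd-LSD1 against PDGF-BB (2859 to 3986 genes).

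With the replicate number as a block, 5 instead of 1 members were called between the lines (Men1, Kdm5b, Phf21a and Kdm1a beside Kdm1b). Kdm6b (0.64, adjusted p = 0.0245), Phf21a (adjusted p = 0.0229) and Dpy30 (adjusted p = 0.00714) became calls for Myocd-LSD1 against control, and Phf21a (adjusted p = 0.0361) replaced Hdac3 (adjusted p = 0.0697) with PDGF-BB. Ash2l (adjusted p = 0.0656) and Dnmt1 (adjusted p = 0.0516) were lost in Myocd-LSD1 against PDGF-BB. Same-numbered libraries went together only in part, with correlations from -0.225 to 0.576. For each line against control, 5 of 8 libraries correlated best with their own number, and between the lines 3 of 8 did. In each comparison with PDGF-BB, 1 of 6 did. These values do not settle whether the numbers pair the libraries, so the block is given as an alternative only. The block called 4246, 342, 4232, 3565 and 3719 genes in the order of comparisons above.

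Scaling moved the balance of directions. PDGF-BB gave 2347 higher and 1037 lower genes as deposited, and 1683 and 1746 with median-of-ratios scaling, which set the median log2 fold change of all genes at -0.01 instead of 0.12. Myocd-LSD1 against PDGF-BB gave 1295 and 2497 as deposited and 1911 and 2008 scaled, the lines 2331 and 1546 as deposited and 2045 and 2135 scaled, and Myocd-LSD1NF against control 58 and 212 as deposited and 109 and 207 scaled. TPM give no depth, so no counting error could be calculated.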

Other observations

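Of 19 tested deacetylases and acetyltransferases outside the set, Kat7 and Sirt2 were higher and Kat2b and Sirt3 lower in Myocd-LSD1 than in control (21.1% called, beside 32.2% of all genes). Kat2b, the PCAF acetyltransferase, was at 42.6, 36.6, 37.4 and 41.7 TPM in Myocd-LSD1, 36.8, 35.9 and 32.4 TPM in PDGF-BB and 52.6, 60.6, 47.6 and 56.9 TPM in control. Both groups lay below every control, with log2 fold changes of -0.45 ± 0.10 (limma adjusted p = 0.00347) and -0.62 ± 0.11 (adjusted p = 0.00110), and it was the 1 gene of this list called with PDGF-BB. Kat7, the HBO1 acetyltransferase, had a log2 fold change of 0.46 ± 0.10 in Myocd-LSD1 against control (adjusted p = 0.00230). Without Myocd-LSD1 libraries 2 and 4 the values of that line were -0.43 for Kat2b (adjusted p = 0.0268) and 0.53 for Kat7 (adjusted p = 0.00795). The calls on Sirt2 and Sirt3 were each lost under 8 of 25 alternatives. Between the lines 1 gene was higher and 2 lower, and in Myocd-LSD1 against PDGF-BB 1 was higher.

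Of 21 tested lysine methylases and demethylases of other marks, Jmjd1c, Kdm4a and Phf2 were higher in Myocd-LSD1 than in control and none was lower (14.3% called). Of all genes, 32.2% were called there, 16.9% higher and 15.4% lower. Jmjd1c, a Jumonji-domain protein, had a log2 fold change of 0.57 ± 0.16 (limma adjusted p = 0.0143) in Myocd-LSD1, lost without libraries 2 and 4 (adjusted p = 0.165) or without control 3, and 0.55 ± 0.18 with PDGF-BB (adjusted p = 0.0309), both against the same controls. In Myocd-LSD1 the Kdm4a call was lost under 17 of 25 alternatives and that of Phf2 under 7, and with PDGF-BB that of Jmjd1c under 7. Nsd2, an H3K36 methyltransferase, was at 36.4, 22.5, 24.6 and 20.2 TPM in Myocd-LSD1, 32.3, 37.2 and 40.3 TPM in PDGF-BB and 21.7, 17.6, 18.3 and 21.3 TPM in control. The PDGF-BB libraries were above every control (0.86 ± 0.18, adjusted p = 0.00366), and Myocd-LSD1 1 lay among them. With PDGF-BB 3 genes of this list rose and none fell (14.3%, beside 19.2% of all genes higher and 8.5% lower). Between the lines 3 were higher (14.3%, beside 31.8% of all genes called). In Myocd-LSD1 against PDGF-BB 1, Nsd2, was lower, a call lost under 17 of 25 alternatives (-0.28 without Myocd-LSD1 libraries 2 and 4, adjusted p = 0.388). Neither list held a gene called in Myocd-LSD1NF against control, where limma called 270 genes over the whole table.

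Among markers of other cell types, Cd14 and Cd68 were higher than in control both in Myocd-LSD1 and with PDGF-BB, of 2 tested leukocyte genes. With PDGF-BB the Cd14 call was lost under 2 of 25 alternatives and the Cd68 call under 7 of 24. In Myocd-LSD1 against control, the fibroblast genes Pi16 (higher) and Lum (lower) were called of 4 tested, and the mesothelial genes Msln (higher) and Upk3b (lower) of 2 tested. Msln had a log2 fold change of 4.32 ± 0.68 (limma adjusted p = 0.000190), and 2.86 without libraries 2 and 4 (adjusted p = 0.00202). Without them Lum stood at -3.26 (adjusted p = 0.000473), and the calls on Pi16 (0.52, adjusted p = 0.122) and Upk3b (-0.25, adjusted p = 0.599) were lost, that on Upk3b under 10 of 25 alternatives in all. Some of these genes were called in other groups too. Lum was also lower in Myocd-LSD1NF than in control, under all 25 alternatives. With PDGF-BB, Dpt and Pi16 were higher and Upk3b lower than in control, and the Pi16 call was lost under 3 of 24 alternatives. Of the 8 SMC markers, 7 were lower and Des was higher in Myocd-LSD1, 5 were lower with PDGF-BB and none was called in Myocd-LSD1NF.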
